A study of Mus musculus with 10 samples.

Results

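The genes described here are 10 markers of contractile mural cells, the smooth muscle cells and pericytes that wrap blood vessels. They were given as a list of symbols and looked up among the 15078 genes of the expression table, and 10 of 10 were present. They are the smooth muscle myosin heavy chain gene Myh11, the myosin light chain gene Myl9, the smooth muscle actin gene Acta2, the tropomyosin genes Tpm1 and Tpm2, the calponin gene Cnn1, the transgelin gene Tagln, the desmin gene Des, the NG2 proteoglycan gene Cspg4 and the G protein regulator gene Rgs5. They were measured by bulk RNA sequencing of sorted mouse cells in 10 libraries that make up 3 groups. Graft BM-MSCs (n = 4) were Tomato+ mesenchymal stem cells from the marrow of transplanted femurs of transgenic POSTN-CRE mice. They were taken 5 months after the femur was transplanted into a wild-type recipient, which was given tamoxifen shortly after transplantation. Steady-state BM-MSCs (n = 3) and periosteal skeletal stem cells (P-SSCs, n = 3) came from the marrow and the periosteum of wild-type mice without treatment, young adults as far as the methods say. Cells of each group were sorted as CD51+CD200+ after exclusion of blood and endothelial cells.

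Some limits of the groups bear on the values. The Cre driver reports use of the Postn gene and is not restricted to the periosteum, so Tomato marks past use of Postn and not a place of origin. Graft and steady-state cells differ in genotype, tamoxifen treatment, transplantation and series at once, and these cannot be told apart. Age at collection is not given for the graft cells, taken 5 months after transplantation, and cannot be told apart either. BM-MSC 2+4 and P-SSC 2+5 each pool RNA of a pair of mice, and the 6 steady-state libraries were taken over from another series. Between 15415421 and 25223295 reads fell on the genes of the table in each library, so that 3 reads, taken as the smallest detectable amount, equal 0.119 to 0.195 ppm. Between 22.6% and 38.3% of genes were at 0 in graft libraries and between 11.5% and 19.0% in steady-state libraries. Among genes with at least 100 normalized counts in every other library of the group, up to 8.78% were at 0 in a graft library (graft BM-MSC 2) and at most 0.363% in a steady-state library. Libraries also differed in the level of GC-rich genes. Against genes of 50% to 60% GC, the 51 tested genes over 65% GC had a median log2 level, each gene centred on its own mean, of 1.52 to 2.80 in all graft libraries and P-SSC 4, and of -1.81 to -1.51 in the other 5 libraries. No member was among these genes, and calls of members that a term for this library profile ended are named with the results. Calls of genes from the other lists were not checked against this term.

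In smooth muscle, calcium activates a kinase that phosphorylates the myosin light chain, and myosin then pulls on actin filaments that are covered by tropomyosin. Many of the genes involved carry a CArG box, the binding site of serum response factor (SRF), which acts with myocardin and the myocardin-related factors. Pericytes sit on capillaries, share part of this machinery and are recognized by NG2, RGS5 and PDGF receptor beta. In bone, perivascular stromal cells of the marrow and cells around vessels of the periosteum can both carry such markers. In bulk RNA, fewer cells of a type and less RNA per cell cannot be told apart.

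Because SRF sites are the known common feature of this gene group, the 250 bases before the RefSeq gene start were searched for the CArG box by name, that is CC, then 6 bases that are each A or T, then GG, and for the same with 1 of the 6 bases being C or G. The motif reads the same on both strands. A window was on hand for 8 of the members, and Tagln and Myh11 had none. An exact box was present before Myl9, and boxes with 1 mismatch were present before Myl9 and Acta2, while 6 members (Cnn1, Cspg4, Des, Rgs5, Tpm1 and Tpm2) held neither form. Of all 32851 windows of this length, 1.47% held the exact box and 8.59% held a box with at most 1 mismatch. The 4 stretches are shown 5′ to 3′ on the strand of the gene, with the box in capitals, since they belong to an actin gene and a light chain gene with unlike values over the libraries, given below.
Acta2, box starting 84 bases before the gene start: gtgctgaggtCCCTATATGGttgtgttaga
Acta2, box starting 34 bases before the gene start: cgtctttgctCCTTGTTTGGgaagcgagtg
Myl9, box starting 161 bases before the gene start: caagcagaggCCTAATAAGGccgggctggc
Myl9, box starting 99 bases before the gene start: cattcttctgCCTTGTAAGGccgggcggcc
The stretches lie at chr19:34255438-34255467 and chr19:34255388-34255417 on the minus strand, and at chr2:156775293-156775322 and chr2:156775355-156775384 on the plus strand (GRCm38.p6). GENCODE M21 places the start of Acta2 further upstream, so that both Acta2 stretches fall inside the gene there and before its start in RefSeq. The Myl9 stretches lie upstream of the gene in both annotations. A match of letters does not show that a site is used.

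Normalized counts, read counts that were scaled by 1 size factor per library, were compared as log2(value + 1) with limma across 13644 genes with a mean of at least 10, which all 10 members passed. Adjusted p-values below are Benjamini-Hochberg values over all of these genes, and a gene was called at an adjusted p under 0.05. Between graft BM-MSCs and P-SSCs, 1 gene was called higher in the graft (Tpm1) and 4 were called lower (Cspg4, Cnn1, Myh11 and Tpm2), where the background over all genes tested was 6.08% higher and 12% lower. In graft BM-MSCs against BM-MSCs, none was called higher and 2 were called lower (Cspg4 and Tpm1), against 2.61% and 5.06% of all genes. In P-SSCs against BM-MSCs, 1 was called higher (Cnn1) and 1 lower (Tpm1), against 4.57% and 4.58%. The median log2 change of the members was -1.38, -1.48 and 0.58 in the 3 comparisons, beside -0.47, -0.53 and 0 over all genes tested. The comparisons share libraries and are not independent of each other. Of the 10 genes, 5, 8 and 8 did not pass in the 3 comparisons, and those that passed did not share 1 direction in the first and the third.

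**Figure D1:**
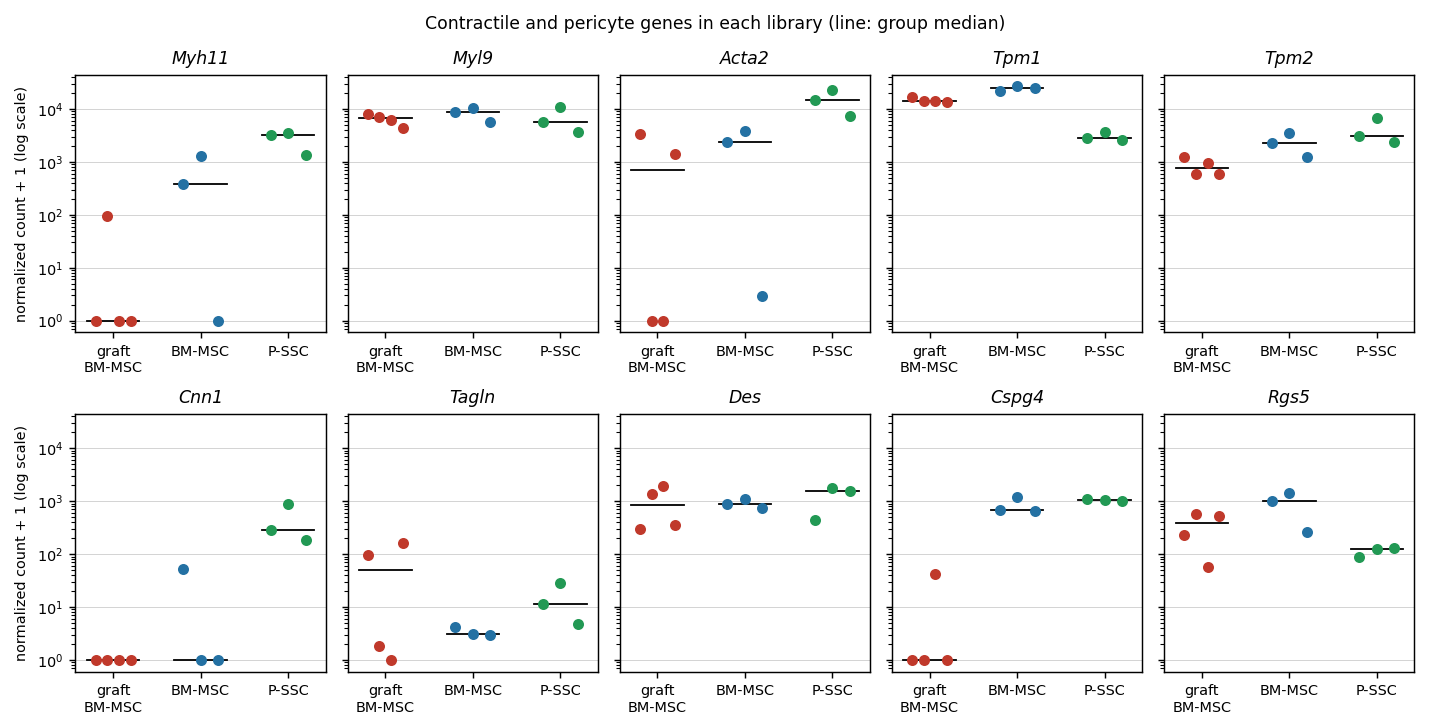
Each panel shows 1 gene, with the normalized count plus 1 on a log axis for each library of the 3 groups, and a line at the group median, so that a gene at 0 sits at 1. Tpm1 was highest in both marrow groups, Acta2, Myh11 and Cnn1 were highest in P-SSCs and at or near 0 in some or all graft libraries, and Myl9 lay in the same range in all 3 groups.

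Myh11, the motor protein of smooth muscle and a specific marker of it, was abundant in P-SSCs and nearly missing in graft BM-MSCs. Normalized counts of Myh11 were 3213, 3543 and 1373 in P-SSC 1, 2+5 and 4, and 373, 1310 and 0 in BM-MSC 1, 2+4 and 3. In graft BM-MSC 1 to 4 they were 0, 94.4, 0 and 0. Every P-SSC library lay above every marrow library, and BM-MSC 3 had no read of a gene that its group mates expressed. Graft BM-MSCs were lower than P-SSCs by -9.64 on the log2 scale (SE 2.45, adjusted p = 0.0207, limma), with means of 23.6 ± 47.2 (SD, n = 4) and 2709 ± 1169 (SD, n = 3), a ratio of 115 in which the graft mean rests on graft BM-MSC 2 alone. This call was lost without P-SSC 1 (adjusted p = 0.0854, limma) or P-SSC 2+5 (adjusted p = 0.0815, limma), and with edgeR (adjusted p = 0.0873) or DESeq2 (adjusted p = 0.0817). Against P-SSC 4 alone, which shares the GC profile of the graft libraries, the log2 difference of the graft mean was -8.78, and a term for that profile gave the same change and ended the call (adjusted p = 0.275, limma). The changes of -4.66 from BM-MSCs to graft BM-MSCs (adjusted p = 0.263, limma) and of 4.99 from BM-MSCs to P-SSCs (adjusted p = 0.38, limma) did not pass, although P-SSCs and BM-MSCs did not overlap.

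Myl9, the regulatory light chain that the kinase phosphorylates, was high in every library and differed little among the groups. Its normalized counts were 8180, 7054, 6286 and 4266 in graft BM-MSC 1 to 4. They were 8665, 10423 and 5611 in BM-MSC 1, 2+4 and 3, and 5718, 11024 and 3687 in P-SSC 1, 2+5 and 4. All pairs of groups overlapped. The log2 change of graft BM-MSCs against P-SSCs was 0.03, with a 95% confidence interval from -0.81 to 0.86 (adjusted p = 0.973, limma). Against BM-MSCs it was -0.35 with an interval from -1.18 to 0.49, and P-SSCs against BM-MSCs gave -0.37 with an interval from -1.27 to 0.52. Myl9 and Myh11 thus had different patterns over the same libraries: in graft BM-MSC 1, 3 and 4 Myl9 had 8180, 6286 and 4266 counts where Myh11 had 0. The nonmuscle heavy chain gene Myh9 had 675, 1136 and 955 counts in these libraries. Which heavy chain the Myl9 product serves was not tested.

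Acta2, the smooth muscle actin gene and the usual stain for mural cells, showed the widest spread within groups. Normalized counts of Acta2 were 14413, 22978 and 7454 in P-SSC 1, 2+5 and 4. In BM-MSC 1, 2+4 and 3 they were 2363, 3905 and 1.97, and in graft BM-MSC 1 to 4 they were 3323, 0, 0 and 1416. Each P-SSC library was above each marrow library, while 1 BM-MSC library and 2 of 4 graft libraries had almost no or no reads of the gene. The log2 change of graft BM-MSCs against P-SSCs was -8.18 with an SE of 3.3 and an interval from -15.5 to -0.86, and it did not pass (adjusted p = 0.113, limma). The ratio of the means was 12.6, with 1185 ± 1574 (SD, n = 4) and 14948 ± 7776 (SD, n = 3). P-SSCs against BM-MSCs gave 5.49 (SE 3.53, adjusted p = 0.539, limma), and graft BM-MSCs against BM-MSCs gave -2.69 (SE 3.3, adjusted p = 0.634, limma). Both graft libraries with Acta2 reads lay inside the range of the BM-MSC libraries.

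The tropomyosin genes moved in opposite directions between graft BM-MSCs and P-SSCs. Tropomyosin lies along the actin filament and sets where myosin and other proteins can bind. Tpm1 had normalized counts of 16487, 13969, 14198 and 13553 in graft BM-MSC 1 to 4. It had 22115, 26775 and 24320 in BM-MSC 1, 2+4 and 3, and 2799, 3587 and 2551 in P-SSC 1, 2+5 and 4. The 3 groups were fully separated, in the order BM-MSC, graft BM-MSC, P-SSC (14552 ± 1317, 24403 ± 2331 and 2979 ± 541 for graft BM-MSCs, BM-MSCs and P-SSCs, SD, n = 4, 3 and 3). Graft BM-MSCs exceeded P-SSCs by 2.30 on the log2 scale (SE 0.17, adjusted p = 2.05e-05, limma), and P-SSCs were lower than BM-MSCs by -3.04 (SE 0.18, adjusted p = 5.98e-06, limma). These were the most precise changes of the 10 genes, and both kept their direction and passed in all 23 alternatives tried.

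The smaller difference of Tpm1 between the marrow groups was less firm. Graft BM-MSCs were lower than BM-MSCs by -0.75 (SE 0.17, adjusted p = 0.027, limma), in a comparison in which the median gene was at -0.53, so that Tpm1 lay -0.22 from the median. The call was lost without graft BM-MSC 2 (adjusted p = 0.0538), graft BM-MSC 3 (0.0516), BM-MSC 1 (0.0589), BM-MSC 2+4 (0.118) or BM-MSC 3 (0.0938, all limma). A correction for the GC content of genes turned the change to 0.10 (adjusted p = 0.884, limma), and a term for the GC profile of the library gave -0.43 (adjusted p = 0.785, limma).

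Tpm2 was lowest in graft BM-MSCs. Its normalized counts were 1229, 581, 962 and 591 in graft BM-MSC 1 to 4, 2229, 3472 and 1210 in BM-MSC 1, 2+4 and 3, and 3080, 6647 and 2375 in P-SSC 1, 2+5 and 4. The highest graft library was just above the lowest BM-MSC library and below all P-SSC libraries. Graft BM-MSCs were lower than P-SSCs by -2.19 (SE 0.47, adjusted p = 0.00843, limma). With the GC correction the change was -1.21 (adjusted p = 0.145, limma), and with a term for the GC profile of the library it was -1.57 (adjusted p = 0.249, limma). Against BM-MSCs the change was -1.40 (SE 0.47, adjusted p = 0.0999, limma), which passed with DESeq2 (-1.46, adjusted p = 0.0362).

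Levels of both tropomyosins were then set against each other per kilobase of exon, a ratio chosen after the values were seen. Tpm1 exceeded Tpm2 by 6.02, 10.8, 6.62 and 10.3 times in graft BM-MSC 1 to 4 and by 4.45, 3.46 and 9.01 times in BM-MSC 1, 2+4 and 3. In P-SSC 1, 2+5 and 4 the ratio was 0.408, 0.242 and 0.482. Per kilobase, Tpm1 was thus the more abundant in all 7 marrow libraries and Tpm2 in all 3 P-SSC libraries. The P-SSC part depends on the lengths used, 6485 bases of annotated exon for Tpm1 and 2909 for Tpm2. Before division by length, P-SSC 4 had more Tpm1 (2551) than Tpm2 (2375). An exact permutation test, two-sided, gave p = 0.0571 for graft BM-MSCs (n = 4) against P-SSCs (n = 3) and p = 0.1 for P-SSCs against BM-MSCs (n = 3 each), which are the smallest values these group sizes allow. The adjusted value over 27 such exact tests of ratios and shares was 0.193 for both. No exact p of these group sizes can fall under 0.05, and the ratio was chosen from the same values, so these tests decide nothing.

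**Figure D2:**
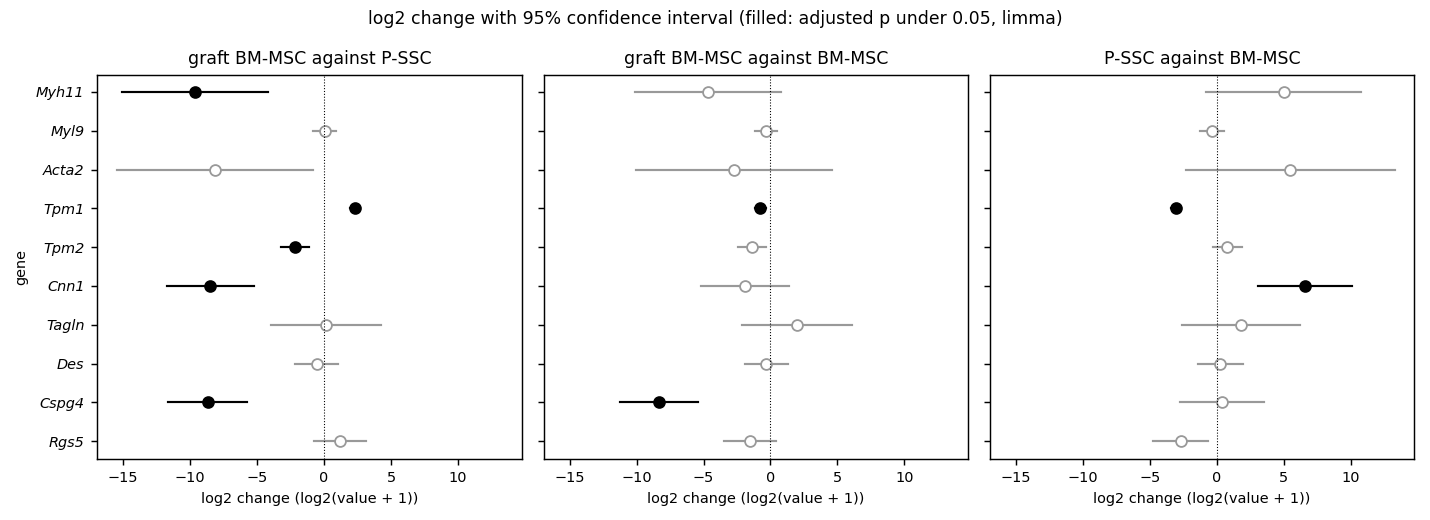
Log2 change of each gene, on the log2(value + 1) scale, with its 95% confidence interval in the 3 comparisons, filled where the adjusted p of limma was under 0.05. Intervals of Tpm1 and Myl9 are narrow and those of Acta2 and Myh11 span several log2 units, and Tpm1 is the only gene called in all 3 comparisons.

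Cnn1, the calponin of smooth muscle that binds actin and restrains myosin, was found in P-SSCs and hardly elsewhere. Its normalized counts were 290, 897 and 180 in P-SSC 1, 2+5 and 4. BM-MSC 1 had 51.2, and BM-MSC 2+4, BM-MSC 3 and all 4 graft libraries had 0. The groups of P-SSC and marrow libraries did not overlap. A count of 0 allows up to 3 reads, or 1.70 to 3.02 normalized counts in the graft libraries. For this counting error alone, the graft values were at least 151-fold lower than the P-SSC mean of 456 ± 386 (SD, n = 3). The bound does not cover the zeros seen in abundant genes of graft libraries, so it is no bound on the cells. Without P-SSC 2+5 the mean was 235 and the bound 77.8-fold. The fitted log2 change was -8.50 (SE 1.47, adjusted p = 0.00255, limma), and with a term for the GC profile of the library it was -7.50 and did not pass (adjusted p = 0.08, limma). P-SSCs exceeded BM-MSCs by 6.60 (SE 1.57, adjusted p = 0.0237, limma). That call was lost without BM-MSC 2+4 or BM-MSC 3 (adjusted p = 0.112 each, limma), without P-SSC 1 (0.0585) or P-SSC 2+5 (0.0727), and with edgeR (adjusted p = 0.398) and DESeq2 (adjusted p = 0.205).

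Tagln, which encodes the actin-bundling protein transgelin or SM22, had few reads in every library. Its normalized counts were 10.4, 28 and 3.88 in P-SSC 1, 2+5 and 4, and 96.6, 0.843, 0 and 164 in graft BM-MSC 1 to 4. In BM-MSC 1, 2+4 and 3 they were 3.13, 2.11 and 1.97, each from 3 reads or fewer. Graft BM-MSC 1 and 4, the graft libraries with Acta2 reads, had 171 and 190 Tagln reads where graft BM-MSC 2 and 3 had 1 and 0, whereas the P-SSC libraries combined high Acta2 with little Tagln. No comparison passed: the log2 change was 0.16 for graft BM-MSCs against P-SSCs (SE 1.85, adjusted p = 0.967, limma) and 1.80 for P-SSCs against BM-MSCs (SE 1.98, adjusted p = 0.842, limma). These values are uncertain, because 67.9% of the exon bases of Tagln are shared with Pcsk7 and the antisense gene Gm48529, and the strand setting of the counting is not given in the sources used here.

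Des, the muscle intermediate filament desmin, was present in all 10 libraries and passed no comparison. Graft BM-MSC 1 to 4 had normalized counts of 302, 1359, 1923 and 361, and there were 888, 1105 and 747 in BM-MSC 1, 2+4 and 3. In P-SSC 1, 2+5 and 4 they were 442, 1791 and 1584. Graft BM-MSC 2 and 3, the libraries with no Acta2 read, had the most Des, so that the graft libraries did not order alike for the 2 genes. The log2 change was -0.56 for graft BM-MSCs against P-SSCs, with an interval from -2.15 to 1.03 (adjusted p = 0.615, limma). An antisense gene, Gm15179, overlaps 5.86% of its exon bases.

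Cspg4 was the gene that most clearly set graft BM-MSCs apart from both steady-state groups. It encodes NG2, a large proteoglycan of the pericyte surface. The 3 BM-MSC libraries had normalized counts of 681, 1206 and 653 (BM-MSC 1, 2+4 and 3), and the 3 P-SSC libraries had 1094, 1043 and 1000 (P-SSC 1, 2+5 and 4). In graft BM-MSC 1 to 4 they were 0, 0, 40.3 and 0, far below all 6 steady-state libraries. Graft BM-MSCs were lower than P-SSCs by -8.69 (SE 1.32, adjusted p = 0.00115, limma) and lower than BM-MSCs by -8.33 (SE 1.32, adjusted p = 0.00562, limma). The means were 10.1 ± 20.1 (SD, n = 4), 1046 ± 46.8 (SD, n = 3) and 847 ± 312 (SD, n = 3), ratios of 104 and 84.1 in which the graft mean rests on graft BM-MSC 3 alone. Steady-state BM-MSCs and P-SSCs overlapped, with a change of 0.36 and an interval from -2.77 to 3.50 (adjusted p = 0.997, limma). The result against P-SSCs was as large against P-SSC 4 alone (-8.63). Against BM-MSCs, no BM-MSC library shared the GC profile of the graft libraries, and a term for this profile gave -8.23 (adjusted p = 0.317, limma), so both cannot be told apart there. With edgeR the change against BM-MSCs did not pass (-6.44, adjusted p = 0.0708), and DESeq2 gave no adjusted p for this gene.

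Rgs5, which shortens signalling by G protein-coupled receptors and marks pericytes, had its highest values in steady-state marrow. Its normalized counts were 1016, 1437 and 266 in BM-MSC 1, 2+4 and 3, and 86.2, 122 and 128 in P-SSC 1, 2+5 and 4. In graft BM-MSC 1 to 4 they were 231, 559, 55.4 and 526, so the graft range covered the whole P-SSC range. P-SSCs and BM-MSCs did not overlap, yet the log2 change of -2.71 did not pass (SE 0.94, adjusted p = 0.117, limma). It passed without graft BM-MSC 3 (adjusted p = 0.0388, limma) and with DESeq2 (adjusted p = 0.00614). The change of graft BM-MSCs was 1.16 against P-SSCs (adjusted p = 0.392, limma) and -1.55 against BM-MSCs (adjusted p = 0.295, limma). NG2 and RGS5, both used to recognize pericytes, thus did not have the same pattern: P-SSCs had much Cspg4 and little Rgs5, and 3 of 4 graft libraries had Rgs5 and no Cspg4.

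Groups that did not overlap were counted over the 10 genes beside all genes tested. Between graft BM-MSCs and P-SSCs, 6 genes did not overlap, of which 1 was higher in the graft (Tpm1, background 8.06%) and 5 were lower (Acta2, Myh11, Cnn1, Tpm2 and Cspg4, background 18.5%). Between graft BM-MSCs and BM-MSCs, none was higher (background 10.3%) and 2 were lower (Tpm1 and Cspg4, background 14.7%). Between P-SSCs and BM-MSCs, 4 were higher (Acta2, Myh11, Cnn1 and Tagln, background 15.1%) and 2 were lower (Tpm1 and Rgs5, background 15.8%). Tagln was separated only by 4 reads in P-SSC 4 against 3 reads in BM-MSC 1, at the floor of detection.

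Within the steady-state groups, but not within the graft, most genes of the contractile apparatus were highest in the same library. Of the 8 members other than Cspg4 and Rgs5, 8 were highest in P-SSC 2+5 among the P-SSC libraries, which was the case for 29.6% of all genes tested. In BM-MSCs, 6 of the 8 were highest in BM-MSC 2+4, where 32.2% of all genes were, and 7 were lowest or tied for lowest in BM-MSC 3, where 38.3% of all genes were. In graft BM-MSCs, 4 of the 8 had their highest value in graft BM-MSC 1 (Acta2, Myl9, Tpm1 and Tpm2), where 22.2% of all genes did, but 3 were lowest or tied for lowest there, and Myh11, Des and Tagln were highest in graft BM-MSC 2, 3 and 4. The libraries with the most contractile RNA were the pooled ones in both steady-state groups. What part pooling or the content of other cell types had in this was not tested.

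Per kilobase of exon, the order of the 10 genes differed between marrow and periosteum. In graft BM-MSCs, Myl9 came first with 5548 ± 1419 normalized counts per kilobase (SD, n = 4) and Tpm1 second with 2244 ± 203, followed by Acta2 with 540 ± 717. BM-MSCs had the same first genes, with 7085 ± 2095 for Myl9, 3763 ± 359 for Tpm1 and 952 ± 895 for Acta2 (SD, n = 3). In P-SSCs, Acta2 came first with 6807 ± 3541 and Myl9 second with 5860 ± 3260, which do not differ beyond their spread, and Tpm2 with 1387 ± 787 stood above Tpm1 with 459 ± 83.4 (SD, n = 3). Myh11 reached 357 ± 154 per kilobase in P-SSCs, 73.8 ± 88.8 in BM-MSCs and 3.11 ± 6.21 in graft BM-MSCs.

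Each muscle gene was next expressed as a share of itself and its nonmuscle relatives, per kilobase, since relatives do the same work in most cells. Acta2 made up 9.93% to 14.5% of Acta2, Actb and Actg1 in P-SSCs, at most 4.55% in BM-MSCs and at most 7.46% in graft BM-MSCs. Myh11 made up 56.7% to 66.9% of Myh11, Myh9, Myh10 and Myh14 in P-SSCs, 0% to 36.8% in BM-MSCs and 0% in 3 of 4 graft libraries, with 24.4% in graft BM-MSC 2. In P-SSCs smooth muscle myosin was thus the main heavy chain of this family, and nonmuscle chains were in all marrow libraries. Tpm1 made up 43.1% to 50.8% of Tpm1, Tpm3 and Tpm4 in graft BM-MSCs, 52.9% to 63.7% in BM-MSCs and 10.9% to 15.2% in P-SSCs. Cnn1 made up 2.54% to 11% of the calponins in P-SSCs, at most 0.161% in BM-MSCs and 0% in graft BM-MSCs. Among the light chain genes compared, Myl9 was the main one in every library, with 70.4% to 82.0% of Myl9, Myl12a and Myl12b over the 10 libraries. The light chain gene Myl6 was not part of this share. Des relative to Vim lay between 7.26% and 9.75% in BM-MSCs, between 1.08% and 4.65% in P-SSCs and between 3.91% and 22.7% in graft BM-MSCs. For graft BM-MSCs against P-SSCs, the exact permutation test gave its smallest possible p of 0.0571 (n = 4 and 3) for the shares of Acta2, Myh11, Tpm1, Tpm2 and Cnn1, and 0.971 for Myl9.

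**Figure D3:**
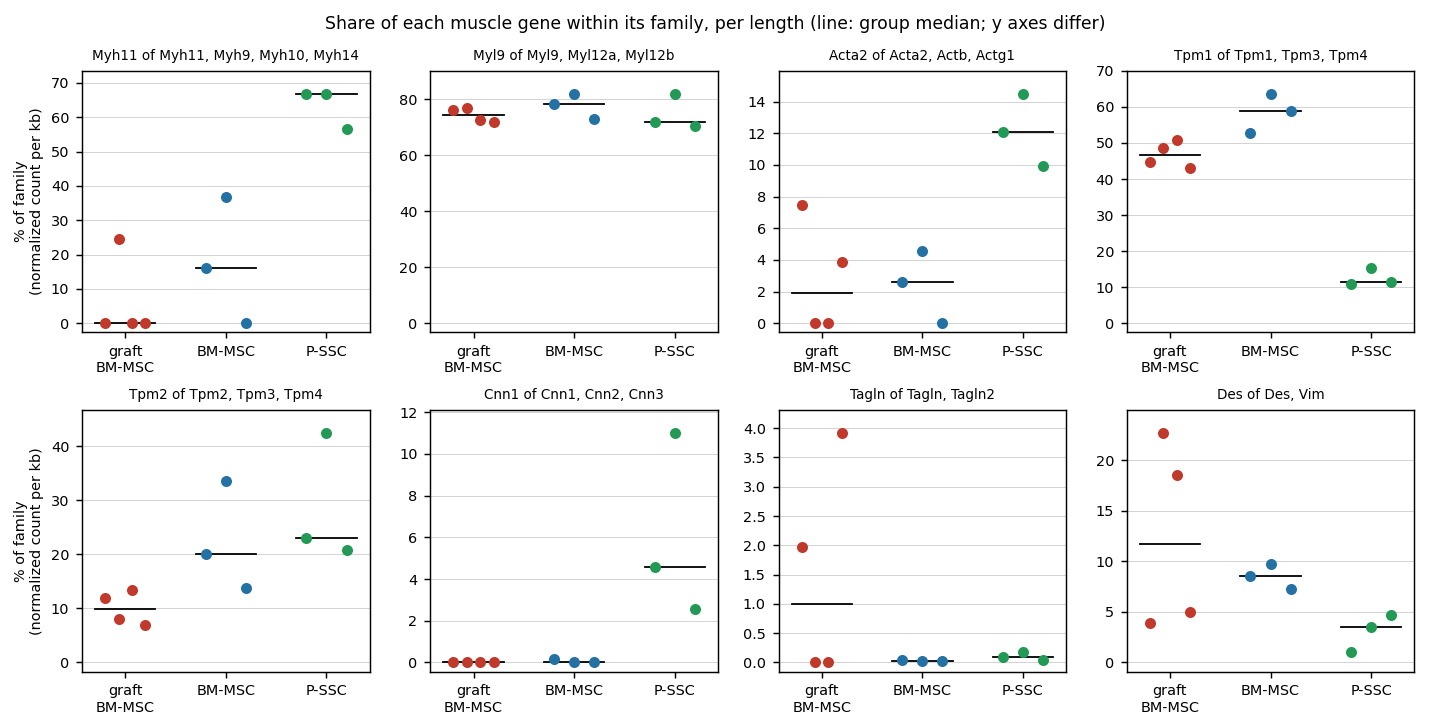
Share of each muscle gene, in percent, among itself and its nonmuscle relatives, from normalized counts per kilobase of exon, with 1 point per library and a line at the group median, on a y axis of its own in each panel. Shares of Myh11, Acta2 and Cnn1 were highest in P-SSCs, that of Tpm1 was highest in marrow, and Myl9 lay between 70.4% and 82.0% in all libraries.

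Of 14 nonmuscle relatives listed, 13 were tested, and none was called higher and 6 lower in graft BM-MSCs against P-SSCs (6.08% and 12% of all genes). Among these 6, the cytoplasmic actins Actb and Actg1 changed by -1.05 (adjusted p = 0.0082, limma) and -1.75 (adjusted p = 4.48e-04, limma), and the mesenchymal filament gene Vim by -2.58 (adjusted p = 4.45e-05, limma). Against BM-MSCs, 0 were called higher and 3 lower in the graft (Actb, Myh9 and Myh10; 2.61% and 5.06% of all genes), with -1.24 for Actb (adjusted p = 0.00964, limma) and -2.19 for Myh9 (adjusted p = 0.00557, limma). In P-SSCs against BM-MSCs, 2 were called higher and 0 lower (4.57% and 4.58% of all genes), Actg1 by 1.02 (adjusted p = 0.024, limma) and Vim by 2.04 (adjusted p = 3.42e-04, limma). The median log2 change of the relatives was -0.91, -0.44 and 0.40 in the 3 comparisons, beside -0.47, -0.53 and 0 for all genes.

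Other genes of the contractile machinery and its regulators, 22 tested of 24 listed, did not move in 1 direction. Against P-SSCs, 2 were called higher and 5 lower in the graft, where 6.08% and 12% of all genes were. The higher ones were Mylk, the light chain kinase, by 1.65 (SE 0.30, adjusted p = 0.00374, limma), and Cnn2, a calponin of nonmuscle cells, by 1.60 (SE 0.29, adjusted p = 0.00363, limma). Among the lower ones were the actin crosslinker Flna (-1.61, adjusted p = 0.00518, limma) and the small GTPase Rhoa (-0.86, adjusted p = 0.00239, limma). Mylk and Cnn2 had the signs of Tpm1: in P-SSCs against BM-MSCs they changed by -2.51 (adjusted p = 6.34e-04, limma) and -2.83 (adjusted p = 2.73e-04, limma), while Rhoa, the third gene called there, rose by 0.73 (adjusted p = 0.0136, limma). Against BM-MSCs, 1 was called higher and 4 were called lower in the graft (2.61% and 5.06% of all genes), among them Cnn2 (-1.23, adjusted p = 0.0322, limma) and Flna (-1.22, adjusted p = 0.0426, limma). The median changes were -1.07, 0.36 and -0.78 in graft BM-MSCs against P-SSCs, P-SSCs against BM-MSCs and graft BM-MSCs against BM-MSCs.

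Of the factors behind the CArG box, Mrtfa, a myocardin-related coactivator that carries actin levels to the nucleus, was called lower in graft BM-MSCs than in both other groups and is named here after its values were seen. It ranged from 21.1 to 106 in the graft, 434 to 814 in BM-MSCs and 464 to 667 in P-SSCs. The log2 change was -3.59 against P-SSCs (SE 0.64, adjusted p = 0.00301, limma) and -3.70 against BM-MSCs (SE 0.64, adjusted p = 0.00808, limma). Mrtfb, another myocardin-related factor, was not called in the graft against P-SSCs (-2.64, adjusted p = 0.103, limma) or BM-MSCs (-0.68, adjusted p = 0.706, limma). Srf itself ranged from 32.2 to 752 in graft BM-MSCs, from 35.9 to 105 in BM-MSCs and from 23.9 to 213 in P-SSCs, with overlap in every comparison, and its change of 1.27 from P-SSCs to the graft did not pass (SE 1.21, adjusted p = 0.498, limma).

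Of 16 further pericyte markers, all tested, 4 were called higher and 3 lower in graft BM-MSCs against P-SSCs, where 6.08% and 12% of all genes were. Pdgfrb, the PDGF receptor of pericytes and the most abundant of them, changed by 0.90 (SE 0.24, adjusted p = 0.0258, limma). Notch3, a receptor that mural cells need, changed by 2.43 (SE 0.46, adjusted p = 0.00453, limma), Heyl, a target of Notch signals, by 1.83 (SE 0.56, adjusted p = 0.0463, limma), and Anpep, the aminopeptidase CD13, by -6.11 (SE 0.75, adjusted p = 3.11e-04, limma). In P-SSCs against BM-MSCs, 1 was called higher (Anpep, 5.21) and 3 were called lower (4.57% and 4.58% of all genes), among them Pdgfrb (-1.90, adjusted p = 7.54e-04, limma) and Notch3 (-2.54, adjusted p = 0.00761, limma). In graft BM-MSCs against BM-MSCs, 0 were called higher and 1 lower (2.61% and 5.06% of all genes), Pdgfrb by -1 (SE 0.24, adjusted p = 0.0323, limma). Pdgfrb had normalized counts of 10490 to 19875 in graft BM-MSCs, 27988 to 34403 in BM-MSCs and 6981 to 10675 in P-SSCs, so the graft libraries with Cspg4 at or near 0 had Pdgfrb at levels at or above those of P-SSCs.

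Markers of other cell types that such a sort could hold were measured beside the contractile genes. Of 18 skeletal muscle genes listed, 12 were in the table, and their summed normalized counts were 140 to 457 in graft BM-MSCs, 183 to 502 in BM-MSCs and 539 to 2250 in P-SSCs. Acta1, the actin of skeletal muscle, was at 0 in all 7 marrow libraries and ranged from 206 to 893 in P-SSCs, with the highest value in P-SSC 2+5, the library in which all 8 contractile genes were highest. Its log2 change was 8.86 in P-SSCs against BM-MSCs (SE 0.97, adjusted p = 2.47e-04, limma). Actn3, Mylpf and Myl1, the next most abundant of the list, overlapped in every comparison and were not called. Actn3 had means of 141, 247 and 111 in graft BM-MSCs, BM-MSCs and P-SSCs, and Mylpf had 71.5, 84.9 and 54.7. The graft against P-SSCs had 0 skeletal muscle genes called higher and 6 called lower of 10 tested, beside 6.08% and 12% of all genes. The part of muscle cells in the contractile genes of P-SSCs was not tested.

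Endothelial and hematopoietic markers moved with the groups as well. Of the 7 endothelial genes in the table, Tek, which encodes the receptor TIE2, ranged from 3254 to 6869 in P-SSCs and was at most 1.04 in marrow libraries, while Cdh5, the defining junction protein of endothelium, was at 0 in all marrow libraries and at most 58.6 in P-SSCs. The summed endothelial list was 0 to 389 in graft BM-MSCs, 238 to 534 in BM-MSCs and 3455 to 7106 in P-SSCs, where it was mostly Tek. Without Tek the sum was 201 to 394 in P-SSCs and 238 to 534 in BM-MSCs. Of the other 6, Tie1 and Emcn were called lower in P-SSCs than in BM-MSCs: Tie1 was at 0 there and at 57.4 to 204 in BM-MSCs (adjusted p = 5.82e-04, limma), and Emcn was at 0 and at 24.3 to 81.5 (adjusted p = 0.00101, limma), while both were at 0 in all graft libraries. The 12 hematopoietic genes, led by the globin genes Hba-a1 and Hbb-bs and the neutrophil genes S100a8 and S100a9, summed to 7149 to 90960 in graft BM-MSCs, 79990 to 218300 in BM-MSCs and 667 to 3224 in P-SSCs. Graft BM-MSC 3 and BM-MSC 3, the highest of their groups, were also at or near 0 for Acta2, as was graft BM-MSC 2. The sorted identity was otherwise visible in the stromal genes: Cxcl12, the chemokine of marrow stroma, ranged from 560618 to 995477 in the 7 marrow libraries and from 3503 to 7751 in P-SSCs. The part of these cells in the values of the contractile genes was not tested.

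**Figure D4:**
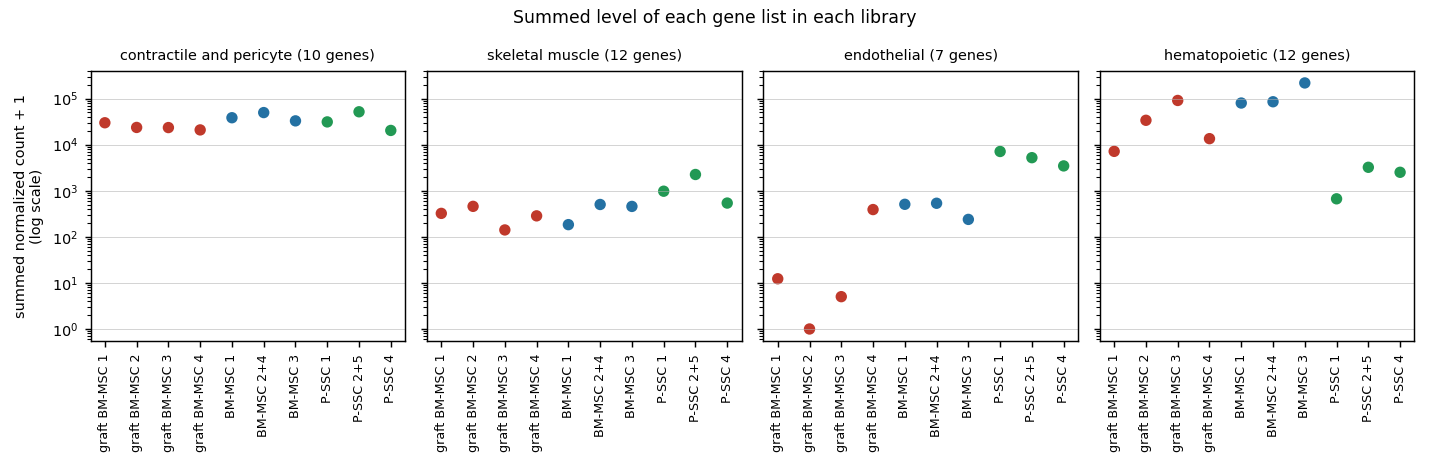
Summed normalized count plus 1, on a log axis, of the 10 contractile and pericyte genes and of the skeletal muscle, endothelial and hematopoietic lists in each of the 10 libraries. The summed contractile genes lay between 20340 and 51660 in all libraries, whereas the skeletal muscle sums were highest and the hematopoietic sums lowest in P-SSCs, and the endothelial sum in P-SSCs was mostly the gene Tek.

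The genes with the pattern most like the contractile genes were found from log2 values centred on the mean of each gene, by the root mean square difference over 10 libraries among 13634 other genes, as a description. Nearest to the mean of the 8 contractile members were Col18a1 (0.76), a basement membrane collagen, Nrep (0.80), Sptan1 (0.86), a spectrin chain, Fosl2 (0.87), an AP-1 subunit, and Ddx41 (0.87), an RNA helicase. Col18a1 had normalized counts of 340 to 829 in graft BM-MSCs, 453 to 1295 in BM-MSCs and 3235 to 4934 in P-SSCs. Nearest to Cspg4 were Pwp2 (0.72), Slco2b1 (0.84) and the angiotensin receptor gene Agtr1a (1.16), each at 0 in graft BM-MSC 1, 2 and 4 and above 0 in graft BM-MSC 3. Nearest to Rgs5 were the BCL2 family gene Bid (0.59), Slc25a13 (0.78) and Nol3 (0.79).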

How the data were processed

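RNA of sorted cells was sequenced in 4 graft BM-MSC, 3 steady-state BM-MSC and 3 P-SSC libraries. The deposited signal values were made by the authors from gene read counts, each divided by a size factor of DESeq2. The study's methods name STAR and GRCm38, and its deposition notes name STAR 2.5, featureCounts (Subread 1.4.6), DESeq2 1.26.0 and GRCm39. Annotation release and strand setting are not given in the sources used here. All values (100%, within 0.01) were multiples of the value of 1 read of their library, so reads were recovered for read totals, edgeR and DESeq2.

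Values were tested as log2(value + 1) in genes with a mean of at least 10 (13644 tested, 1434 removed). limma 3.58.1 in R 4.3.3 fitted 1 mean per group to all 10 libraries (empirical Bayes with a variance trend, 7 residual degrees of freedom), two-sided, with Benjamini-Hochberg adjustment. Replicates held RNA of distinct mice. The members and gene lists were chosen with earlier results of these data known. From lists other than the members, the up to 4 most abundant genes, called or in the list, were named, apart from 1 that is not reported here. Alternatives were pseudocounts of 0.1 and 5, a filter at a mean of 100 or none, median centring, quantile normalization, edgeR 4.0.16, DESeq2 1.42.0, fits of 2 groups, GC adjustments, leaving out each library, and a replicate block. Fits were tested on simulated data. Positions, exon lengths and GC content came from GENCODE M21 (99.8% of IDs matched), and windows before genes from RefSeq (GRCm38.p6). Floors of 3 reads cover counting error only.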

Additional observations from a re-analysis of the deposited data

Results flagged for a closer look

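Of 22 values examined over the 4 graft libraries, 4 had 1 library further from the others than Dixon's test allows at the 95% level. Chance gives this in about 1 of 20 groups, but that rate does not apply to Myh11, its share and Cspg4, where 3 of 4 values are 0 and any other value above 0 meets the rule. Myh11 was at 94.4 normalized counts in graft BM-MSC 2 and at 0 in the other 3 graft libraries, and, from the same counts, its share of the myosin heavy chains per kilobase was 24.4% there and 0 in the others. Cspg4 was at 40.3 normalized counts in graft BM-MSC 3 and at 0 in the other 3. The endothelial genes summed to 389 normalized counts in graft BM-MSC 4 and to at most 11.3 in the other 3 graft libraries.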

How the results depend on the processing

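Each log2 change of a member and each count of members called was recomputed under 23 alternatives. Exceptions were Tagln, which the filter at a mean of 100 removed, and Cspg4, for which DESeq2 gave no adjusted p. Genes of the other lists were not followed through the alternatives. Called genes were 5 in graft BM-MSCs against P-SSCs, 2 in graft BM-MSCs against BM-MSCs and 2 in P-SSCs against BM-MSCs. For the first comparison there were 3 with DESeq2 and 2 with a term for the GC profile of the library. For the second there was 1 with median centring, quantile normalization or the GC correction, and 0 with edgeR or the GC profile term. For the third there was 1 with edgeR. Leaving out 1 library gave 1 to 2 in the second and 1 to 3 in the third. Libraries of equal replicate number had correlations of deviations from -0.0191 to 0.0295. Most such pairs set a graft library against a steady-state one, so these values cannot tell whether any libraries share a mouse. A replicate block, which leaves 2 residual degrees of freedom, gave 1, 0 and 1 called genes in the 3 comparisons, also with the GC correction.

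Of the recomputed changes, 611 kept their sign and their side of the threshold, 39 lost a call, 5 gained one and 29 turned sign. In graft BM-MSCs against BM-MSCs, the GC correction gave 0.10 for Tpm1, 0.50 for Myl9 and 0.56 for Des, the GC profile term gave 0.76 for Myl9, and edgeR and DESeq2 gave 0.09 and 0.12 for Des. The replicate block with the GC correction gave 0.29 for Acta2, 0.36 for Des, 0.74 for Myl9, 0.20 for Tpm1 and 0.10 for Tpm2 there. In graft BM-MSCs against P-SSCs, the GC correction gave 0.41 for Des, median centring and DESeq2 gave -0.05 and -0.11 for Myl9, and a pseudocount of 0.1 gave -0.76 for Tagln. In P-SSCs against BM-MSCs, the GC profile term gave -0.02 for Des, and the replicate block gave -1.24 for Tagln, or -1.18 with the GC correction. Without 1 library, Des ranged from -0.11 to 0.90 in P-SSCs against BM-MSCs and from -0.77 to 0.12 in graft BM-MSCs against BM-MSCs, and Myl9 from -0.34 to 0.45 and Tagln from -1.05 to 1.40 in graft BM-MSCs against P-SSCs. The cause was not tested. Scaling moved the median of all genes in graft BM-MSCs against BM-MSCs from -0.53 to -0.05 with edgeR and -0.17 with quantile normalization. With 3 or 4 libraries in a group and zeros in abundant genes of graft libraries, changes of Acta2, Myh11 and Tagln carry standard errors of 1.85 or more.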
